A study of Mus musculus with 8 samples.

Results

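The members of cytochrome P450 families 2 to 4 were followed in whole lungs of mice with K-ras-driven lung tumors, with and without the STAT3 inhibitor TTI-101. The members are all protein-coding genes of the count table whose symbol begins with Cyp2, Cyp3 or Cyp4 followed by a letter. Cyp2f2, a marker of club cells, was left out. There are 77 such genes among the 54532 of the table, and 25 of them had at least 10 counts in at least 4 of the 8 libraries. All mice were of the CC-LR genotype on a C57BL/6 background, in which Cre recombinase at the club cell secretory protein locus switches on the K-rasG12D allele in lung epithelium and tumors form spontaneously. The Control and TTI-101 groups therefore carry the same alleles and hold 4 mice each, 1 library per mouse. They were taken at 14 weeks of age, the TTI-101 group after 4 weeks of drug from 10 weeks of age. The route, dose, vehicle and sex of these 8 mice are not given in the labels, and lungs were not separated into tumor and surrounding tissue.

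Cytochrome P450 enzymes are heme proteins that insert 1 atom of molecular oxygen into a substrate, and those of families 2 to 4 sit in the endoplasmic reticulum and take their electrons from the reductase Por. Families 2 and 3 oxidize drugs and other foreign chemicals, and some members of family 2 make epoxides of arachidonic acid. Family 4 hydroxylates fatty acids and eicosanoids at or near the end of the carbon chain. In the lung, club cells are the best known site of these enzymes, and many of the genes are far more active in liver than in lung.

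Libraries held 16446481 to 26873509 counts in the Control group and 16075855 to 25920509 in the TTI-101 group. Levels are given as CPM, counts scaled by library size and TMM factor, and as CPM per kilobase of gene length where genes are compared with each other. Control mouse 4 stood apart from the other 7 mice on the first principal component of log2 CPM, at 101 against -39.3 to 17.9, and had 5.56% of its counts in mitochondrial genes against 2.01% to 2.85%. This mouse was the highest of the 8 for 7 and the lowest for 12 of the 25 members, and many fold changes are also given without it. Replicates 1 and 2 of both groups had Xist at 8.65 to 8.82 on the log2 CPM scale and replicates 3 and 4 at 0.22 to 1.64, so this split fell equally on both groups. The lungs carried the markers of their tissue, with 10 alveolar type 2 cell genes at a sum of 43390 to 77430 CPM in Control and 34002 to 61716 CPM in TTI-101 lungs, all 10 with lower values and 0 at an unadjusted p under 0.05 in edgeR. Higher values in TTI-101 lungs were found for 7 of 8 alveolar type 1 cell, 8 of 8 fibroblast, 5 of 7 smooth muscle and 7 of 9 alveolar macrophage markers, 0 of them at an unadjusted p under 0.05, and for 8 of 8 B cell and 5 of 5 red blood cell markers, of which 8 and 4 had an unadjusted p under 0.05.

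The promoters of 4 members are shown because TTI-101 is aimed at a transcription factor. Cyp4b1 and Cyp4f13 are the only members whose promoter window held the letters TTCNNNGAA, the palindrome to which STAT proteins bind, and Cyp2e1 and Cyp3a13 are, with Cyp4b1, the members of lowest p-value. Each line gives the 250 bases before the transcription start of RefSeq, read 5′ to 3′ on the strand of the gene in build GRCm38.p6, with the match in capitals. The window of Cyp4b1 is chr4:115647722-115647971 (minus strand), that of Cyp4f13 chr17:32947362-32947611 (minus strand), that of Cyp2e1 chr7:140763569-140763818 (plus strand) and that of Cyp3a13 chr5:137921620-137921869 (minus strand). The gene coordinates of the count table and the RefSeq starts differ by a few bases for Cyp4b1 and reach into the window for Cyp4f13 and Cyp2e1. The count table carries Cyp4f13 to 32947402, so by those coordinates its TTCNNNGAA match lies inside the gene.
Cyp4b1: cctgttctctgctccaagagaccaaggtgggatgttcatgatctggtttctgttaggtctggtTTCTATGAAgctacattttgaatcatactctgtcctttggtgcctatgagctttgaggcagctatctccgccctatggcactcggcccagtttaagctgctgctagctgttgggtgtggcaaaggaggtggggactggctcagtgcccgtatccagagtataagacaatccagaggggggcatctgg
Cyp4f13: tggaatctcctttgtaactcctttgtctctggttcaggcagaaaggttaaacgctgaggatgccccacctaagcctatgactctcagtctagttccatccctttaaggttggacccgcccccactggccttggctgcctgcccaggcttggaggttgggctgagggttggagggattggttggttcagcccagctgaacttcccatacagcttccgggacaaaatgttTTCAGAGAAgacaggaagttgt
Cyp2e1: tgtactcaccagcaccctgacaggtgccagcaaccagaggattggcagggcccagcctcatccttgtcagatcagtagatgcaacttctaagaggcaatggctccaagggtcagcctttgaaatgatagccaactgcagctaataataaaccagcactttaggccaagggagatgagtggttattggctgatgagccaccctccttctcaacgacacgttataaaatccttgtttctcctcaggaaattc
Cyp3a13: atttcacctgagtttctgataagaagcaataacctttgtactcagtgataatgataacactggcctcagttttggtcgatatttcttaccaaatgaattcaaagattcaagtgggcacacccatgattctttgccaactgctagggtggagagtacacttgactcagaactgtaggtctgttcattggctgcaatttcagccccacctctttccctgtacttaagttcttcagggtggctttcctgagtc

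Of the 25 members, 19 matched a RefSeq window of 250 bases before and 50 bases after the start. The letters TTCNNNGAA, which read the same on both strands, were in 2 of the 19 windows (10.5%), at position -187 as TTCTATGAA in Cyp4b1 and at position -22 as TTCAGAGAA in Cyp4f13, against 8.3% of all 32851 windows. The letters GCGTG, the core of the element bound by the aryl hydrocarbon receptor, were on either strand in 7 of 19 windows (36.8%), those of Cyp2j9, Cyp2b10, Cyp2r1, Cyp4v3, Cyp2ab1, Cyp4f39 and Cyp4f16, against 32.4% of all windows. The letters AGGTCA, a half-site of nuclear receptors, were on either strand in 3 of 19 windows (15.8%), those of Cyp2b19, Cyp2a5 and Cyp2t4, against 16.3%. No match of 1 motif overlapped a match of another in these windows. The 250 bases before the RefSeq start of Cyp4f39 end at 32452722 on chromosome 17, while the count table starts the gene at 32468462. A match is a description of the sequence and not a measured binding site.

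The lung expressed a small part of these families, and few genes held most of the transcripts. Of the 48 genes of family 2, 14 reached the minimum, of the 9 of family 3 only Cyp3a13 did, and of the 20 of family 4, 10 did. Of the subfamilies best known from liver, 1 of 15 Cyp2c genes, 1 of 8 Cyp2d genes, 1 of 9 Cyp3a genes and 2 of 8 Cyp4a genes reached the minimum, and 6 of 9 Cyp4f genes did. Of the 52 members below the minimum, 26 had 0 counts in every library, 20 had 1 to 9 counts in all and 6 had more. Cyp2c40 alone among the 52 had 10 or more counts in any library, with 24 of its 30 counts in Control mouse 4. No reported member reached 10 counts in 1 group only, and 21 of the 25 had at least 10 counts in all 8 libraries.

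Cyp4b1, which activates furans and other lung toxicants, was the highest member at 253 CPM per kilobase over the 8 mice. Cyp2b10, the classic phenobarbital-inducible enzyme of the mouse, followed at 106 CPM per kilobase, Cyp2s1, an epithelial enzyme outside the liver, at 51.3 and Cyp2a5, the coumarin hydroxylase, at 46.3. Cyp2d22, at 18.0 CPM per kilobase, and Cyp4v3, at 15.4, came next, and the other 19 members lay between 10.4 and 0.308. The 4 highest members held 81.0% ± 2.01 of the summed level of the 25 in Control mice and 82.1% ± 0.58 in treated mice (SD, n = 4 each). The order of Cyp2s1 and Cyp2a5 was not fixed. Cyp2a5 was the higher per kilobase in Control mice 2 and 3 and in TTI-101 mouse 2, where it held 18.2% of the summed level against 10.8%, and its TTI-101 mean was 46.4 CPM per kilobase against 40.8 for Cyp2s1.

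**Figure D1:**
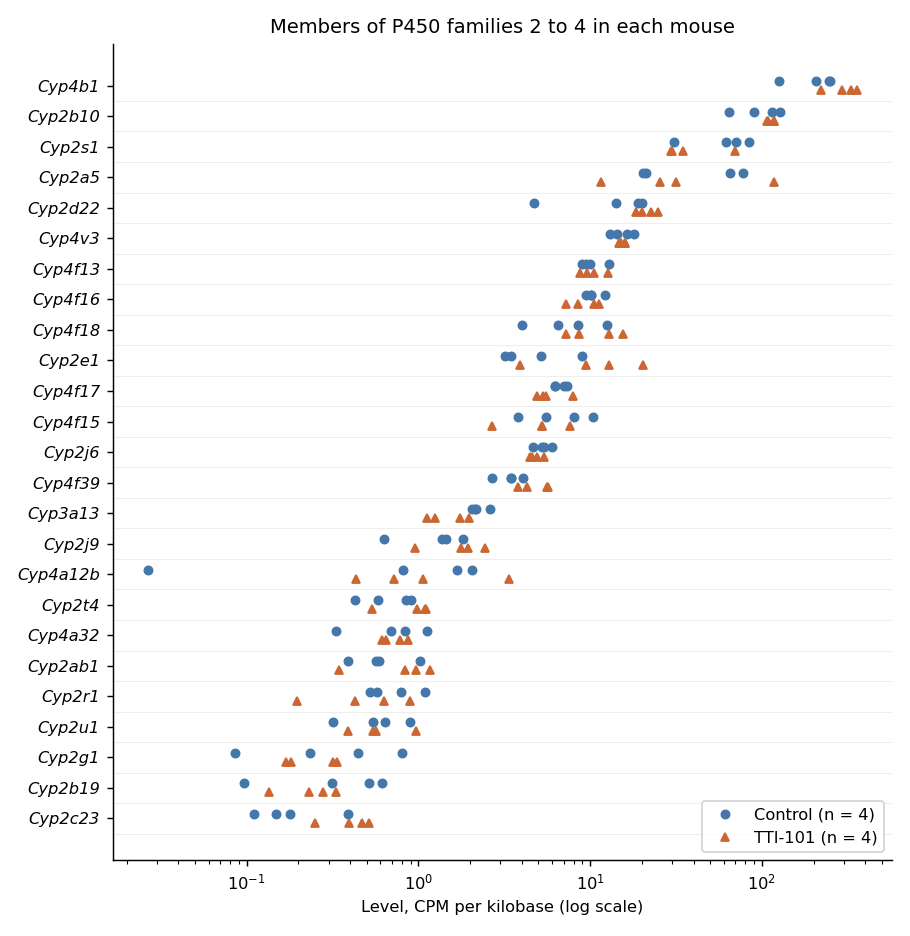
Level of each of the 25 members in each mouse in CPM per kilobase of gene length on a log scale, ordered by the mean over 8 mice, with circles for Control and triangles for TTI-101. Levels run from 253 CPM per kilobase for Cyp4b1 to 0.308 for Cyp2c23 in mean, and the lone circle far to the left is the single count of Cyp4a12b in Control mouse 4.

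The summed level of the 25 members was 489, 601, 574 and 372 CPM per kilobase in Control mice 1 to 4 and 597, 644, 659 and 537 CPM per kilobase in TTI-101 mice 1 to 4. Control mouse 4 was the lowest and the groups overlapped, with means of 509 ± 103 (SD, n = 4) and 609 ± 55.1 (SD, n = 4). The difference of 100.4 CPM per kilobase between the means was 59.5 without Control mouse 4. Cyp4b1 held 50.4%, 41.3%, 35.9% and 34.0% of the summed level in Control mice 1 to 4 and 55.2%, 34.2%, 54.2% and 54.4% in TTI-101 mice 1 to 4. It was therefore above 50% in Control mouse 1 and in TTI-101 mice 1, 3 and 4, and at 34.0% to 35.9% in Control mice 3 and 4 and TTI-101 mouse 2. Cyp2s1 held 22.6% in Control mouse 4, more than in any other mouse.

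**Figure D2:**
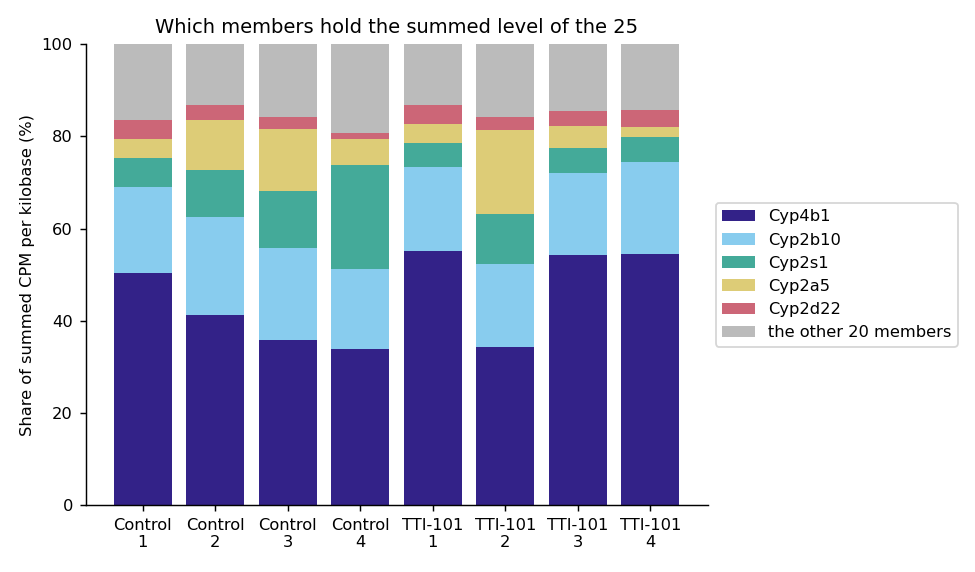
Share of the summed CPM per kilobase of the 25 members, in percent, held by the 5 highest members and by the other 20 in each of the 8 mice. Cyp4b1 ranges from 34.0% in Control mouse 4 to 55.2% in TTI-101 mouse 1, while Cyp2b10 stays between 17.2% and 21.1%.

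The comparison of TTI-101 with Control lungs asks whether STAT3 inhibition went with a different level of these enzymes. No member passed edgeR's quasi-likelihood test after Benjamini-Hochberg adjustment, with adjusted p-values from 0.657 to 0.998, and 0% of the 17138 genes tested passed it. DESeq2's Wald test called 4 genes and limma-voom 0 genes at an adjusted p under 0.05, none of them a member. At an unadjusted p under 0.05, 3 of the 25 members passed in edgeR (12%), Cyp4b1 and Cyp2e1 with higher and Cyp3a13 with lower values in TTI-101 lungs, against 6.61% of all genes tested. In counts this is 3 members beside 1132 genes, and without Control mouse 4 or without TTI-101 mouse 3 it was 0 members. The shares of all genes in those leave-one-out fits are not given here, so the fall to 0 is not read as a result about the members. Cyp3a13 was the only member whose groups did not overlap (4% of 25), against 2.96% of all genes. Fold changes were above 0 for 14 of 25 members (56%), against 50.6% of all genes. The median log2 fold change was 0.01 over the members and 0.00 over all genes, and single members ran from -0.65 for Cyp2b19 to 1.16 for Cyp2e1.

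**Figure D3:**
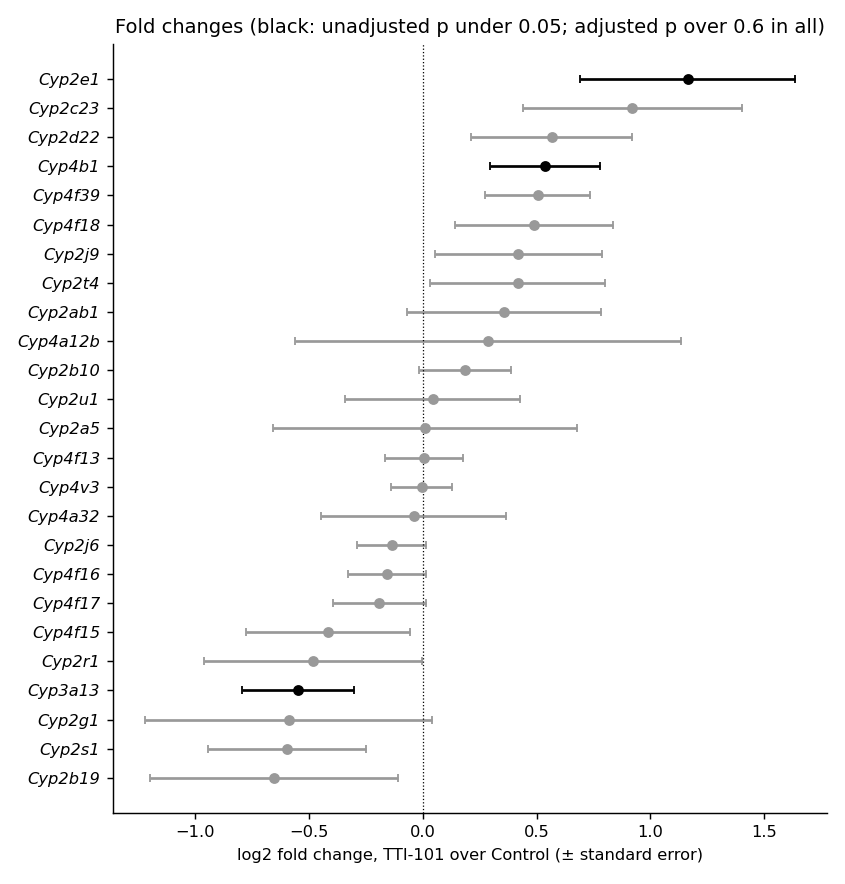
Log2 fold change of TTI-101 over Control with its standard error (SE, bars) for the 25 members, from edgeR, ordered by size. The 3 members in black (Cyp2e1 at 1.16, Cyp4b1 at 0.54 and Cyp3a13 at -0.55) have an unadjusted p under 0.05, and none has an adjusted p under 0.657.

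Among the 7 reported of 13 genes for foreign chemicals in the airway, 4 had higher and 3 lower values in TTI-101 lungs, and 2 had an unadjusted p under 0.05, where all genes tested gave 50.6% higher and 6.61% under 0.05. Cyp4b1 (ENSMUSG00000028713, chromosome 4, 115624725 to 115647723, minus strand) was at 556, 560, 464 and 285 CPM in Control mice 1 to 4 and at 744, 497, 807 and 659 CPM in TTI-101 mice 1 to 4. TTI-101 mice 1, 3 and 4 lay above every Control mouse, TTI-101 mouse 2 lay among them, and Control mouse 4 was the lowest. The group means of Cyp4b1 were 466 ± 129 and 677 ± 134 CPM (SD, n = 4 each), and its log2 fold change was 0.54 (standard error, SE, 0.24, p = 0.0485 and adjusted p = 0.657 in edgeR, two-sided exact permutation p = 0.0857). The smallest p that 70 assignments of 8 mice allow is 0.0286. Without Control mouse 4 the log2 fold change of Cyp4b1 was 0.37 (adjusted p = 1.00 in edgeR), and without TTI-101 mouse 2 it was 0.67 (adjusted p = 0.29 in edgeR).

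Markers of the capillary endothelium moved with Cyp4b1. All 8 of these markers had higher values in TTI-101 lungs, 1 of them (Plvap) with an unadjusted p under 0.05 in edgeR, with a median log2 fold change of 0.54, and their summed level ran from 1038 to 2887 CPM in Control mice and 2417 to 4344 CPM in TTI-101 mice. Control mouse 4 was lowest and TTI-101 mouse 3 highest for both the endothelial sum and Cyp4b1. The same held for the sums of 8 fibroblast markers, at 1298 to 3404 CPM in Control and 2938 to 4666 CPM in TTI-101 mice, and of 8 alveolar type 1 cell markers, at 2548 to 3983 and 3752 to 4943 CPM. The sum of club cell markers was highest in Control mouse 4, at 43686 CPM, where Cyp4b1 was lowest. Scgb1a1 alone gave 31148 CPM of that sum, and Scgb1a1, Scgb3a2, Nupr1, Aldh1a7 and Gabrp were each highest in that mouse. Cbr2 and Cyp2f2 of the same list were highest in Control mouse 3, and Bpifa1, Scgb3a1 and Krt15 were lowest in Control mouse 4. In bulk lung, fewer cells of a type and less RNA per cell cannot be told apart, and the part of any of these cells in the values of Cyp4b1 was not tested. Cyp4b1 shared 3.4% of its 100-base stretches with other annotated genes.

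Cyp2e1 (ENSMUSG00000025479, chromosome 7, 140763739 to 140774987, plus strand), which oxidizes ethanol and small solvents, had the largest fold change. It was at 11.2, 19.4, 7.43 and 6.91 CPM in Control mice 1 to 4 and at 20.3, 44.1, 27.9 and 8.39 CPM in TTI-101 mice 1 to 4. TTI-101 mice 1 to 3 exceeded every Control mouse, while TTI-101 mouse 4 lay below Control mice 1 and 2. The means were 11.2 ± 5.75 and 25.2 ± 14.9 CPM (SD, n = 4 each), which is 2.24-fold, or a log2 fold change of 1.16 (SE 0.47, p = 0.0324 and adjusted p = 0.657 in edgeR, exact permutation p = 0.114). Without TTI-101 mouse 2 the log2 fold change was 0.76 (adjusted p = 0.444 in edgeR), and without Control mouse 4 it was 1.00 (adjusted p = 1.00 in edgeR).

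Adipocyte markers followed the same order of mice as Cyp2e1. Their sum over 10 genes was 103, 160, 48.5 and 19.7 CPM in Control mice 1 to 4 and 251, 378, 304 and 62.5 CPM in TTI-101 mice 1 to 4. Of the 8 adipocyte markers tested, 7 had higher values in TTI-101 lungs, 5 with an unadjusted p under 0.05 in edgeR, with a median log2 fold change of 1.54. Adiponectin (Adipoq), which defines the cell type, was at 3.60, 3.83, 0.33 and 0.13 CPM in Control and at 10.1, 11.7, 11.01 and 1.52 CPM in TTI-101 mice 1 to 4. Markers of hepatocytes, the main site of Cyp2e1, summed to 3.71 to 13.6 CPM in Control and 2.72 to 4.32 CPM in TTI-101 lungs, with 2 of the 9 at 0 in every library. The part of these cells in the values of Cyp2e1 was not tested.

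**Figure D4:**
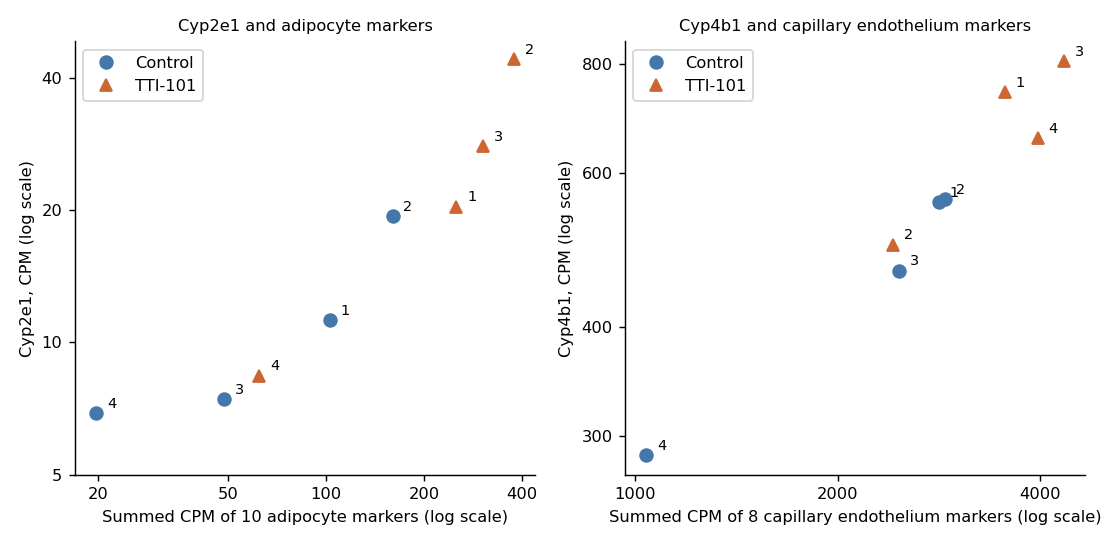
Each mouse's level of Cyp2e1 against the summed CPM of 10 adipocyte markers (left) and of Cyp4b1 against that of 8 capillary endothelium markers (right), all in CPM on log scales, with mouse numbers beside the points. Control mouse 4 is lowest on all 4 axes, at 6.91 CPM for Cyp2e1 and 285 CPM for Cyp4b1, and no trend was fitted in either panel.

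Cyp2s1, Cyp2b10 and Cyp2a5, the other abundant airway enzymes, had overlapping groups and folds between the lowest and the highest mouse of 2.86, 1.99 and 10.1. Cyp2s1 (ENSMUSG00000040703, chromosome 7, 25802475 to 25816913, minus strand) was at 152, 304, 347 and 416 CPM in Control mice 1 to 4 and at 148, 342, 171 and 145 CPM in TTI-101 mice 1 to 4. TTI-101 mice 1, 3 and 4 and Control mouse 1 formed the low end, with TTI-101 mouse 2 among the high Control mice. Its log2 fold change was -0.60 (SE 0.35, adjusted p = 0.657 in edgeR, exact permutation p = 0.229), from 305 ± 112 to 202 ± 94.3 CPM (SD, n = 4 each), and -0.97 without TTI-101 mouse 2 (adjusted p = 0.28 in edgeR).

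The sums of ciliated and of club cell markers ran high and low in nearly the same mice as Cyp2s1. The summed level of 10 ciliated cell markers was 292, 514, 542 and 930 CPM in Control mice 1 to 4 and 240, 625, 291 and 230 CPM in TTI-101 mice 1 to 4. All 10 had lower values in TTI-101 lungs, 5 at an unadjusted p under 0.05 in edgeR, with a median log2 fold change of -0.77. Club cell markers summed to 18602 to 43686 CPM in Control and 15758 to 32742 CPM in TTI-101 lungs, with 7 of 10 lower, 4 of the 10 at an unadjusted p under 0.05 and a median log2 fold change of -0.62. The club cell markers with higher values, Bpifa1, Scgb3a1 and Krt15, were lowest in Control mouse 4, where Cyp2s1 was highest. The part of ciliated and club cells in the values of Cyp2s1 was not tested. Cyp2s1 overlaps the antisense gene Gm45226, which had 243 counts against 37079 for Cyp2s1.

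Cyp2b10 (ENSMUSG00000030483, chromosome 7, 25897620 to 25926624, plus strand) was at 191, 268, 242 and 135 CPM in Control mice 1 to 4 and at 230, 247, 249 and 226 CPM in TTI-101 mice 1 to 4. All 4 TTI-101 mice lay inside the range of the Control mice, with a log2 fold change of 0.19 (SE 0.20, adjusted p = 0.784 in edgeR, exact permutation p = 0.371). Without Control mouse 4 this value was 0.04, and without Control mouse 2 it was 0.34. Cyp2a5 (ENSMUSG00000005547, chromosome 7, 26835305 to 26843548, plus strand) was at 43.5, 135, 161 and 42.3 CPM in Control and at 53.1, 243, 65.2 and 24.0 CPM in TTI-101 mice 1 to 4. The lowest and the highest mouse were both treated with TTI-101, and its log2 fold change was 0.01 (SE 0.67, adjusted p = 0.998 in edgeR, exact permutation p = 0.8). Without TTI-101 mouse 2 this value was -1.001, and without either Control mouse 1 or Control mouse 4 it was -0.23. Cyp2a5 shared 12.1% of its 100-base stretches with other genes, 8.08% with Cyp2a4, which had 16 counts in all against 14030.

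Cyp2b19 and Cyp2g1, known from skin and from the olfactory mucosa, were at or under 2.56 CPM in every mouse. Their log2 fold changes were -0.65 (SE 0.54, adjusted p = 0.725 in edgeR) and -0.59 (SE 0.63, adjusted p = 0.783), with Control mouse 4 the highest for both. Without Control mouse 4 they were -0.32 and 0.05.

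**Figure D5:**
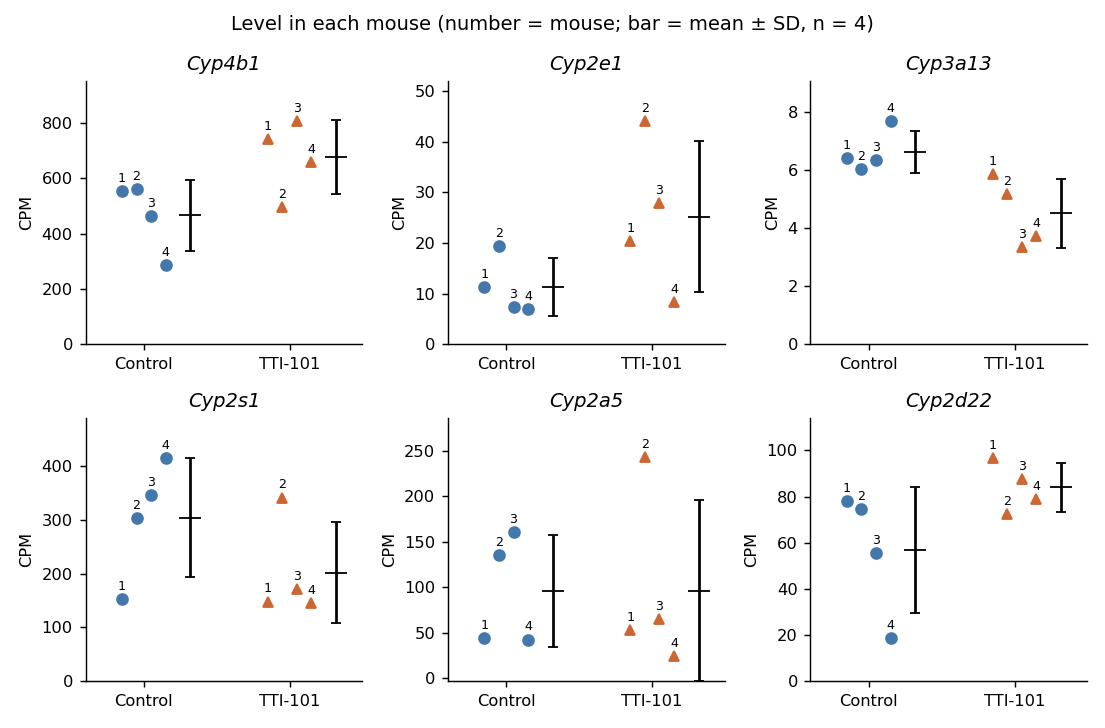
CPM of 6 members in each mouse, with Control circles at the left and TTI-101 triangles at the right of each panel, mouse numbers above the points and the mean with its SD as a bar (n = 4). Cyp3a13 is the panel in which the groups do not overlap, at 6.04 to 7.68 CPM against 3.34 to 5.84 CPM, and TTI-101 mouse 2 stands apart in Cyp2s1 at 342 CPM and in Cyp2a5 at 243 CPM.

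Cyp3a13 (ENSMUSG00000029727, chromosome 5, 137892932 to 137921619, minus strand) was the only Cyp3a gene of 9 that reached the minimum. The Cyp3a enzymes oxidize a broad range of drugs and steroids. Cyp3a13 was at 6.42, 6.04, 6.32 and 7.68 CPM in Control mice 1 to 4 and at 5.84, 5.16, 3.34 and 3.71 CPM in TTI-101 mice 1 to 4. Every TTI-101 mouse lay below every Control mouse, but narrowly. The nearest were TTI-101 mouse 1 at 5.84 CPM, from 155 counts, and Control mouse 2 at 6.04 CPM, from 101 counts. The means were 6.61 ± 0.73 and 4.51 ± 1.19 CPM (SD, n = 4 each), with a log2 fold change of -0.55 (SE 0.25, adjusted p = 0.657 in edgeR). The two-sided exact permutation p was 0.0286, the smallest this design can give. Any gene whose groups do not overlap has this value, so it adds nothing to the lack of overlap. With 1 mouse left out at a time, the log2 fold change ran from -0.70 to -0.43. The counts were 60 to 155 in TTI-101 libraries, and the gene lies on the same strand as Gm15502, which had 27 counts in all.

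Cyp2d22 (ENSMUSG00000061740, chromosome 15, 82370527 to 82380260, minus strand) was the only Cyp2d gene of 8 that reached the minimum. The subfamily includes the human enzyme of many antidepressants and beta blockers. It was at 78.2, 74.5, 55.5 and 18.5 CPM in Control mice 1 to 4 and at 96.8, 72.5, 87.8 and 78.8 CPM in TTI-101 mice 1 to 4. Control mouse 4 was far below the other 7 mice and TTI-101 mouse 2 lay below Control mice 1 and 2. The log2 fold change was 0.57 (SE 0.35, adjusted p = 0.664 in edgeR, exact permutation p = 0.114) and 0.29 without Control mouse 4.

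The omega-hydroxylases, 9 reported of 19 genes, had 4 higher and 5 lower values in TTI-101 lungs, with a median log2 fold change of 0.00. In edgeR 0 of the 9 had an unadjusted p under 0.05, against 6.61% of all genes tested. Cyp4v3 (ENSMUSG00000079057, chromosome 8, 45304944 to 45333216, minus strand), a fatty acid hydroxylase whose human counterpart is mutated in a retinal dystrophy, was among the steadiest. It was at 68.2, 54.8, 62.4 and 49.9 CPM in Control mice 1 to 4 and at 60.6, 60.4, 57.8 and 55.7 CPM in TTI-101 mice 1 to 4, all inside the Control range. Its log2 fold change was -0.00 (SE 0.13, adjusted p = 0.996 in edgeR, exact permutation p = 1). It shared 5.77% of its 100-base stretches with Gm45753, which had 2 counts.

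Cyp4f13 (ENSMUSG00000024055, chromosome 17, 32924688 to 32947402, minus strand), the other gene with the STAT letters in its promoter window, was at 33.2, 31.6, 42.8 and 29.9 CPM in Control and at 28.9, 42.4, 35.2 and 31.9 CPM in TTI-101 mice 1 to 4. The groups overlapped almost fully, with a log2 fold change of 0.01 (SE 0.17, adjusted p = 0.994 in edgeR, exact permutation p = 0.971). Cyp4f16 (ENSMUSG00000048440, chromosome 17, 32536558 to 32551798, plus strand) was at 30.6, 30.3, 36.7 and 28.5 CPM in Control and at 21.9, 33.8, 31.9 and 25.7 CPM in TTI-101 mice 1 to 4. TTI-101 mice 1 and 4 lay below every Control mouse, and the log2 fold change was -0.16 (SE 0.17, adjusted p = 0.789 in edgeR, exact permutation p = 0.371). Of its 100-base stretches, 5.95% were shared, nearly all with Cyp4f37.

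Cyp4f18 (ENSMUSG00000003484, chromosome 8, 71988482 to 72009626, minus strand), which inactivates leukotriene B4 in neutrophils, was at 15.8, 12.1, 23.1 and 7.42 CPM in Control and at 16.0, 13.4, 28.7 and 24.0 CPM in TTI-101 mice 1 to 4. Control mouse 4 was the lowest and the groups overlapped, with a log2 fold change of 0.49 (SE 0.35, adjusted p = 0.687 in edgeR, exact permutation p = 0.2). Without Control mouse 4 the log2 fold change was 0.28. Neutrophil markers moved with it in part. The sum of 8 was 316, 61.3, 238 and 40.8 CPM in Control and 356, 69.2, 309 and 485 CPM in TTI-101 mice 1 to 4. All 7 tested were higher in TTI-101 lungs, 1 at an unadjusted p under 0.05 in edgeR, with a median log2 fold change of 0.83. Replicates 2 of both groups and Control mouse 4 were low for both the markers and Cyp4f18. In each group, replicate 1 exceeded replicate 3 for the marker sum but lay below it for Cyp4f18. The part of neutrophils in the values of Cyp4f18 was not tested. Cyp4f18 also overlaps Zfp961 on the other strand, which had 2847 counts against 2727, and whether the counting used the strand is not given in the sources used here.

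Of the other omega-hydroxylases, Cyp4f39, which acts on very long fatty acids of the skin barrier, came nearest the threshold. It was at 6.49, 5.50, 5.55 and 4.29 CPM in Control and at 6.90, 6.06, 9.01 and 9.12 CPM in TTI-101 mice 1 to 4, and only TTI-101 mouse 2 lay below the highest Control mouse. Its log2 fold change was 0.51 (SE 0.23, adjusted p = 0.657 in edgeR, exact permutation p = 0.0571). Cyp4f17 and Cyp4f15 had log2 fold changes of -0.19 and -0.42. Cyp4f15 was highest in Control mouse 4, at 23.7 CPM, and without it the log2 fold change was -0.15.

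Cyp4a12b and Cyp4a32, of the subfamily that makes 20-HETE from arachidonic acid, were at or under 8.05 CPM. Cyp4a12b had 53, 82, 72 and 1 counts in Control mice 1 to 4 and 46, 134, 46 and 17 in TTI-101 mice 1 to 4. Its log2 fold change of 0.29 (SE 0.85) turned to -0.11 without Control mouse 4 and to -0.60 without TTI-101 mouse 2. It shared 36.2% of its 100-base stretches with Cyp4a12a, which had 9 counts. Cyp4a32 had a log2 fold change of -0.04 and shared 18.2% of its stretches with other genes, so that reads of both genes could be split or dropped by the counting.

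The epoxygenases of arachidonic acid, whose products relax vessels and airways, were represented by 3 of 23 genes, 2 with higher and 1 with lower values. Of the 3, 0 had an unadjusted p under 0.05 in edgeR, against 6.61% of all genes tested. Cyp2j6 was the steadiest of all 25 members, with 1.33-fold between the lowest and the highest mouse, at 19.1 ± 1.98 CPM in Control and 17.4 ± 1.44 CPM in TTI-101 lungs (SD, n = 4 each) and a log2 fold change of -0.14, or -0.07 without Control mouse 4. Cyp2j9 was at 6.09, 4.84, 4.60 and 2.11 CPM in Control and at 8.14, 3.18, 6.45 and 5.90 CPM in TTI-101 mice 1 to 4, with overlap of the groups and a log2 fold change of 0.42 (SE 0.37, adjusted p = 0.735 in edgeR), or 0.21 without Control mouse 4 and 0.23 without TTI-101 mouse 1. Cyp2c23, the kidney epoxygenase, was at 0.24 to 0.84 CPM in Control and 0.54 to 1.11 CPM in TTI-101 lungs. Its log2 fold change of 0.92 (SE 0.48, adjusted p = 0.657 in edgeR) rests on 4 to 27 counts per library.

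Of the 4 reported single members, Cyp2r1, the vitamin D 25-hydroxylase, had a log2 fold change of -0.48 (SE 0.48, adjusted p = 0.763 in edgeR) at 0.42 to 2.30 CPM, which was -0.23 without Control mouse 4 and -0.84 without TTI-101 mouse 4. Cyp2u1, a fatty acid hydroxylase of thymus and brain, had 0.04 (SE 0.38). The orphan enzymes Cyp2ab1 and Cyp2t4 had 0.36 and 0.42, or 0.19 and 0.26 without Control mouse 4, and both had overlapping groups. Cyp2t4 lies opposite Egln2, which had 12966 counts against 211 for Cyp2t4, so antisense reads would weigh on it if strand was not used.

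The members differed widely in how much they varied among mice. The fold between the highest and the lowest mouse had a median of 3.39 over the 25 members, and it was 1.37 for Cyp4v3, 2.83 for Cyp4b1, 6.38 for Cyp2e1 and 10.1 for Cyp2a5. Of the 300 pairs of members, 0 passed an adjusted p of 0.05 by Pearson's r, and the pair of lowest p is given with 2 others. Over the 8 mice, log2 CPM of Cyp4b1 and Cyp2d22 had Pearson's r = 0.927 (exact permutation p = 0.000248, adjusted p = 0.0744 over 300 pairs) and Spearman's rho = 0.952 (exact permutation p = 0.00114, adjusted p = 0.114). Their r was 0.894 without Control mouse 4 and TTI-101 mouse 3, the mice farthest from the median of Cyp4b1, and 0.902 after each group was centred on its mean. Cyp2s1 and Cyp4f15 had r = 0.867 (exact permutation p = 0.000794, adjusted p = 0.0938) and rho = 0.976 (exact permutation p = 0.000397, adjusted p = 0.114), and r = 0.84 without Control mouse 4 and TTI-101 mouse 4. Cyp4b1 and Cyp2s1, both abundant airway enzymes, had r = -0.806 (exact permutation p = 0.00481, adjusted p = 0.144) and rho = -0.786 (exact permutation p = 0.0279, adjusted p = 0.27), and r = -0.817 without Control mouse 4 and TTI-101 mouse 3. The pairs share libraries, depth and the cell makeup of each lung.

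The partners of these enzymes were measured in the same lungs. Por, the reductase that feeds every microsomal P450, was at 408 ± 60.4 CPM in Control and 399 ± 94.9 CPM in TTI-101 lungs (SD, n = 4 each), with a log2 fold change of -0.03 (adjusted p = 0.97 in edgeR). Of 9 electron donors and heme genes, 2 had higher and 7 lower values. Against 6.61% of all genes tested, 2 of the 9 had an unadjusted p under 0.05 in edgeR. These were Alas1, the first enzyme of heme synthesis, at 433 ± 141 against 283 ± 40.8 CPM (log2 fold change -0.62, adjusted p = 0.657 in edgeR), and Hmox1, which degrades heme, at 70.3 ± 19.6 against 49.2 ± 7.71 CPM (log2 fold change -0.52, adjusted p = 0.657 in edgeR). The groups overlapped for both genes. Control mouse 4 was the highest for Hmox1, at 96.3 CPM, and without it the log2 fold change of Hmox1 was -0.32.

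Of 16 nuclear receptors and other regulators of these enzymes, 14 were tested, 7 with higher and 7 with lower values. Hnf4a, a regulator of liver P450 genes, was the only one with an unadjusted p under 0.05, at 2.68, 2.27, 3.83 and 8.51 CPM in Control and 1.51, 2.76, 0.22 and 0.67 CPM in TTI-101 mice 1 to 4. Control mouse 4 was the highest and TTI-101 mouse 2 overlapped the Control mice, with a log2 fold change of -1.73 (SE 0.66, adjusted p = 0.657 in edgeR). The log2 fold change of Hnf4a was -1.17 without Control mouse 4 and -2.36 without TTI-101 mouse 2. The aryl hydrocarbon receptor Ahr had a log2 fold change of 0.03 and its partner Arnt 0.01. Of 14 other enzymes of arachidonic acid, 10 had higher and 4 lower values. Of the 14, 0 had an unadjusted p under 0.05 in edgeR, against 6.61% of all genes tested.

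Among 22 genes of other P450 families, 11 were tested, 5 with higher and 6 with lower values. Of the 11, 2 had an unadjusted p under 0.05 in edgeR, against 6.61% of all genes tested. Cyp1a1, the target gene of Ahr, had a log2 fold change of 4.32 (edgeR adjusted p = 0.105) with groups that did not overlap, at 10.6 ± 7.03 against 214 ± 95.7 CPM (SD, n = 4 each), and Cyp39a1 had -0.45. Among the 7 members of families 2 to 4 with GCGTG in the promoter window, log2 fold changes ran from -0.48 for Cyp2r1 to 0.51 for Cyp4f39. Of these, 0 had an unadjusted p under 0.05 in edgeR, against 6.61% of all genes tested. With a share that small, 0 of 7 is not read as a result about these members.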

How the data were processed

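Whole-lung RNA of 8 mice (4 Control, 4 TTI-101) was sequenced as poly(A)-selected libraries of a stranded kit. The deposited table gives whole-number counts for each Ensembl gene, made by the authors' sequencing provider and not normalized, with a gene length column. The submitters' processing notes name STAR, DESeq2 and mm10, and the counting tool and its strand setting are not given in the sources used here. Groups and replicate numbers were taken from the labels. Counts were fitted for all genes in R 4.3.3 with edgeR 4.0.16 (TMM, filterByExpr with a minimum of 10, robust quasi-likelihood F-test, Benjamini-Hochberg over 17138 genes). Total counts per library ran from 16075855 to 26873509. Exact permutation tests ran over 70 assignments of the mice on log2 CPM (prior count 2), and correlations over 40320 permutations.

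The members and gene lists were chosen with earlier results of these data known. Named in full were members with an unadjusted p under 0.05 or groups without overlap and the 10 highest per kilobase, and pathway genes by the same p or overlap, with Por. Ahr, Arnt, Cyp2c40, Adipoq and Plvap fall outside this rule and were named after their values were seen. Gene coordinates of 70 of 77 members equal those of GENCODE M21 on GRCm38. Promoters were read from RefSeq windows, which 19 of the 25 reported members have. For 17 of these 19 windows, bases after the start were found in a GENCODE transcript of the gene. No protein sequences were used. No 2 libraries agreed within sampling noise. The labels number the samples without saying more of the mice, so p-values measure the spread between these samples.

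Alternatives were DESeq2 1.42.0 (Wald test, and its size factors), limma-voom 3.58.1, library totals, no filter, 10 counts in every library, protein-coding genes, the replicate number as a block, Xist as a covariate and each mouse left out in turn. The fits were tested on simulated data.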

Additional observations from a re-analysis of the deposited data

Results flagged for a closer look

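Cyp2s1 in TTI-101 mouse 2 stood apart from the other mice of its group at 342 CPM, against 145 to 171 CPM in TTI-101 mice 1, 3 and 4. Its gap to the nearest mouse was 0.866 of the range of the group, above Dixon's 95% critical value for 4 samples. Of 52 groups tested in this way, chance alone would give about 2.6 such values, and 1 was found. Without this mouse the log2 fold change of Cyp2s1 was -0.97 (adjusted p = 0.28 in edgeR) in place of -0.60.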

How the results depend on the processing

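No member passed an adjusted p of 0.05 under any of 17 alternatives, with 0 members in each. With all 8 mice kept, the count at an unadjusted p under 0.05 was 1 with no filter (Cyp4b1) and 1 with the replicate block (Cyp2e1), and from 2 to 4 under the other settings. Leaving out 1 mouse at a time gave 0 to 5 members at an unadjusted p under 0.05 (0 without Control mouse 4 and without TTI-101 mouse 3, 1 without Control mouse 3 and without TTI-101 mouse 4, 5 without Control mouse 1), 1 to 6 members whose groups did not overlap (6 without TTI-101 mouse 2, 3 without Control mouse 1), a median log2 fold change of -0.0923 to 0.23 and a summed difference of 59.5 to 133 CPM per kilobase. The cause was not tested, though 1 mouse fewer also makes it easier for the groups of any gene not to overlap. The shares of all genes in these leave-one-out fits are not given here. The counts are therefore not read as a result about the members.

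Signs turned for 8 of the genes named. Cyp4v3 was at 0.00515 with DESeq2's Wald test, 0.00258 with its size factors, 0.0285 with library totals, 0.00278 in limma-voom, 0.00496 with no filter, 0.00441 on protein-coding genes and 0.00459 with the replicate block. Cyp2a5 was at -0.175 with Xist as a covariate, -0.252 in limma-voom and -0.244 with the replicate block. Por was at 0.00561 with library totals, Cyp4f13 at -0.00294 in limma-voom, and Cyp4a32 at 0.0432 in limma-voom and 0.0276 with the replicate block. With 1 mouse left out, the log2 fold change ran from -1.001 to 0.38 for Cyp2a5, -0.0653 to 0.0761 for Cyp4v3, -0.0932 to 0.13 for Cyp4f13, -0.26 to 0.23 for Cyp4a32, -0.19 to 0.0772 for Por, -0.60 to 0.73 for Cyp4a12b, -0.25 to 0.30 for Cyp2u1 and -0.95 to 0.0523 for Cyp2g1.

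Same-numbered mice of the 2 groups correlated in their deviations from the group means at 0.393, 0.0822, 0.158 and 0.0707, and 2 of the 4 correlated best with their own number, so the numbers were not taken as pairs. With the replicate block, 1298 of all genes had an unadjusted p under 0.05 in place of 1132. Cyp4b1 passed an unadjusted p of 0.05 in 9 of 17 alternatives, Cyp2e1 in 10 and Cyp3a13 in 4. Low counts limit the members under 2 CPM.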
